A study of Sus scrofa domesticus with 28 samples.

Results

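FABP4, LIPE, PLIN1 and PNPLA2 are genes of the fat cell, and their transcripts were followed in pig skin and in scars of the same pigs. The genes were taken as every array probe whose RefSeq transcript identifier belongs to pig FABP4, LIPE, PLIN1 or PNPLA2. This gave 12 of 43603 probes, of which 7 were of FABP4, 3 of LIPE, 1 of PLIN1 and 1 of PNPLA2. All 12 passed the filter on dim probes, which kept 24513 probes standing for 18773 features (a gene, or a transcript without a gene name), and 18768 of these features could be tested.

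The 28 biopsies came from 2 juvenile castrated male red Duroc pigs, numbered 49 and 50, whose skin is used as a model of human scarring. Control skin was taken on the left and right of each pig (4 biopsies, no scar, no pressure). Scars labelled early were all sham-treated, with 4 hyperpigmented and 4 hypopigmented biopsies. Scars labelled mid and late each comprised 2 biopsies in each of 4 groups, namely sham hyperpigmented, sham hypopigmented, pressure hyperpigmented and pressure hypopigmented, with 1 biopsy from each pig. Every mid and late pressure biopsy lay on the right side and every sham biopsy on the left, so side and pressure cannot be told apart. Scar titles also carry a number whose unit is not stated, and the labels do not describe how pressure was applied. Every hyperpigmented title carries the code a1 and every hypopigmented title the code a3, with no meaning given. Pigmentation and that code therefore cannot be told apart. Each 2-colour Agilent array held the RNA of 1 biopsy in the red dye (Cy5) and a commercial pooled pig RNA in the green dye (Cy3), with no dye swap. Levels are therefore log2 ratios of biopsy to reference, where 1 unit is a doubling. All scar biopsies came from the same pair of animals, so p-values measure the spread between biopsies of these pigs and not between pigs at large.

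Adipocytes store triglyceride in a single large droplet. PLIN1 (perilipin 1) coats that droplet and, in the resting cell, holds back the lipase co-activator ABHD5. Adrenergic signalling frees ABHD5 to activate PNPLA2 (adipose triglyceride lipase), which cuts triglyceride to diacylglycerol. LIPE (hormone-sensitive lipase) cuts diacylglycerol, MGLL cuts the remaining monoglyceride, and FABP4 carries the released fatty acids through the cytoplasm. In skin, adipocytes form the layer under the dermis and surround hair follicles.

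In control skin all 4 genes had log2 ratios above 0, and in early, mid and late scar all 4 were lower than in control skin. In early scar FABP4 fell by 3.07 on the log2 scale and LIPE fell by 2.23. PNPLA2 and PLIN1 fell too, but with a red signal above background on 2 and 0 of the 8 early arrays, so that the size of their fall is known less well. The 4 genes passed the test in each scar phase (limma, Benjamini-Hochberg adjusted p under 0.05 over 18768 features). With the array slide as a further fixed block, 3, 2 and 1 of the 4 genes passed in early, mid and late scar, as given below with the values. The share of all features called with that block is not given here, so these counts have no background beside them. Without the slide block, 14.7% of all features were called lower in early scar, 11.6% in mid scar and 13.4% in late scar. The median difference over all features was 0.11, 0.10 and 0.10. The medians of the fitted differences over the 4 genes were -1.70, -1.51 and -1.27. The 3 comparisons share the 4 control arrays. In whole biopsies, fewer fat cells and less RNA per fat cell cannot be told apart.

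**Figure D1:**
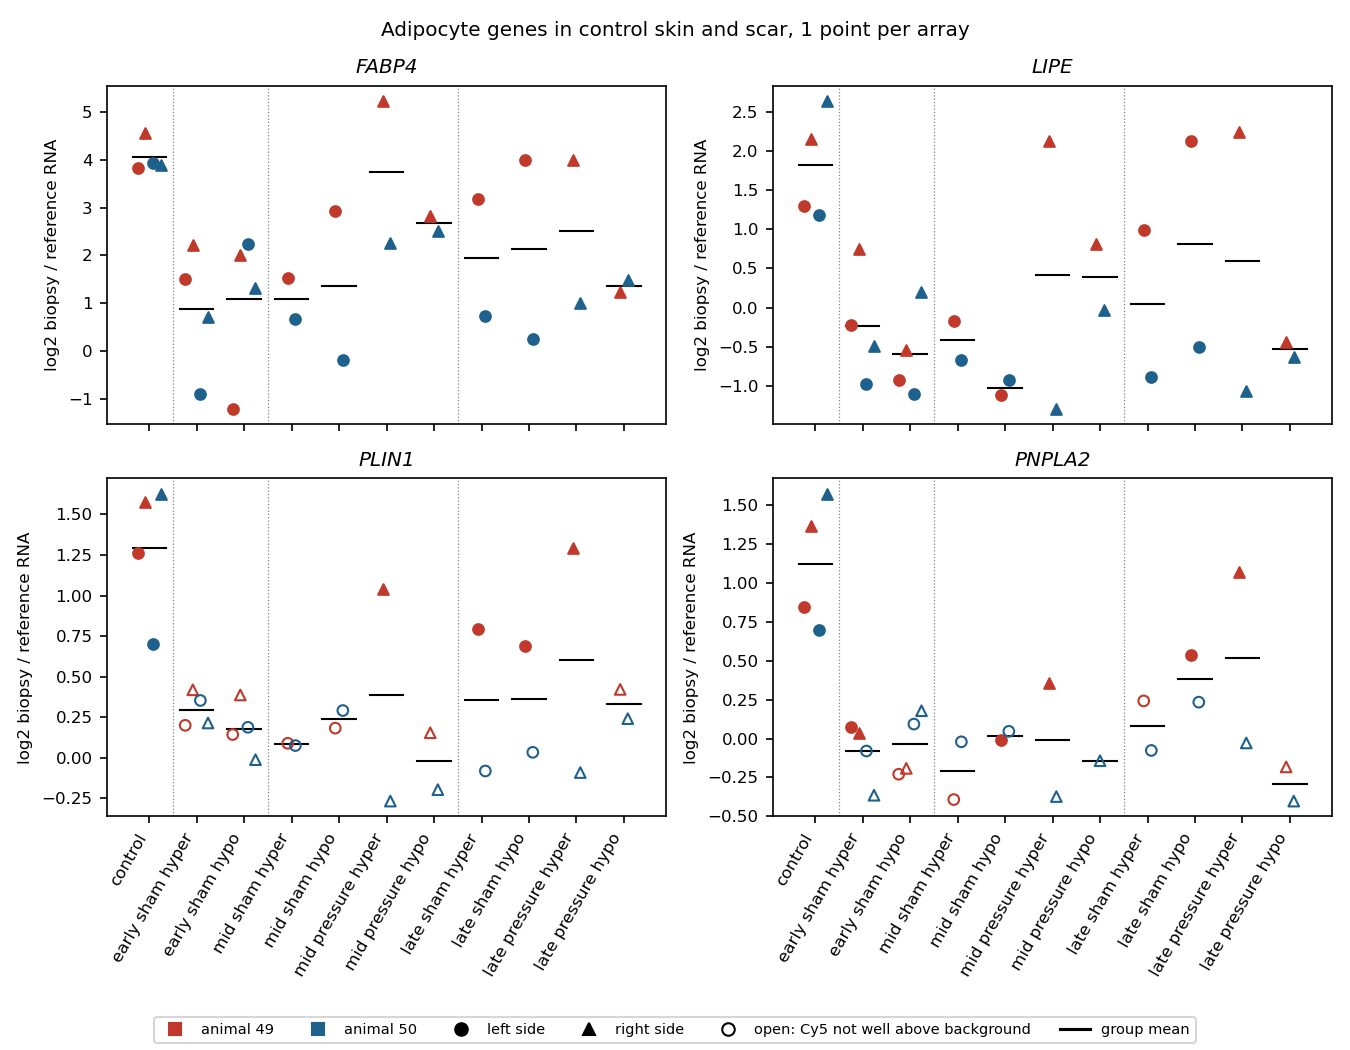
Log2 ratio of biopsy to reference RNA (y axis) for the brightest probe of each gene, 1 point per array, by group (x axis), with group means as bars. Red points are animal 49 and blue points animal 50, circles the left and triangles the right side, and open symbols have a red signal not well above background. All early scar points lie below all control points for each gene, and the high points of mid and late scar are red.

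FABP4, the cytoplasmic fatty acid carrier, is made in quantity by fat cells and at lower levels by capillary endothelium and macrophages. Its log2 ratios in control skin were 3.83 and 4.57 on the left and right of animal 49, and 3.93 and 3.89 on the left and right of animal 50. Early scar ran from -1.21 through a median of 1.41 to 2.24, so that every early biopsy lay below every control biopsy. Among all features, 10.8% showed that separation in early scar. Mid scar ran from -0.19 through 2.39 to 5.22 and late scar from 0.25 through 1.36 to 4.01. In mid scar 7 of 8 biopsies and in late scar 6 of 8 lay below the lowest control, whereas a full separation was seen for 5.6% and 6.21% of features. The difference from control was -3.07 ± 0.70 (SE, n = 8 against 4, adjusted p = 0.00163, limma) in early scar, 8.37-fold lower. It was -1.83 ± 0.70 (adjusted p = 0.0477) in mid scar and -2.07 ± 0.70 (adjusted p = 0.0229) in late scar, 3.57-fold and 4.20-fold lower.

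The mid scar call of FABP4 lay close to the threshold. It was lost without the animal as a block (adjusted p = 0.0882), with no filter on dim probes (adjusted p = 0.0786) and when any of 8 of the 12 arrays involved was left out (adjusted p up to 0.142, without the left control of animal 50). These were the right control of animal 49, both controls of animal 50, the mid sham hyperpigmented scars of both animals, the mid pressure hypopigmented scar of animal 49, and the mid pressure hyperpigmented and sham hypopigmented scars of animal 50. In late scar the call was lost without the left control of animal 50 (adjusted p = 0.0803), without its right control (0.0645) or without its late sham hypopigmented scar (0.0585).

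LIPE, which cuts diacylglycerol, had log2 ratios of 1.30 and 2.16 on the left and right of animal 49 and of 1.19 and 2.63 on the left and right of animal 50 in control skin. In early scar LIPE ran from -1.10 through a median of -0.51 to 0.74. Again no early biopsy reached the lowest control. In mid scar it ran from -1.29 through -0.42 to 2.12 and in late scar from -1.06 through -0.47 to 2.24, with 7 of 8 and 6 of 8 biopsies below all controls. LIPE differed from control by -2.23 ± 0.52 (adjusted p = 0.00201) in early scar, by -1.98 ± 0.52 (adjusted p = 0.00660) in mid scar and by -1.59 ± 0.52 (adjusted p = 0.0198) in late scar. These are 4.69-fold, 3.94-fold and 3.01-fold lower. Without the right control of animal 50, its highest control value, the late difference was -1.13 (adjusted p = 0.108).

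PNPLA2, the lipase that opens triglyceride breakdown, had control ratios of 0.84 and 1.37 on the left and right of animal 49 and of 0.69 and 1.57 on the left and right of animal 50. Early scar ran from -0.36 through a median of -0.02 to 0.18, mid scar from -0.39 through -0.02 to 0.35 (7 biopsies, 1 spot being a flagged outlier) and late scar from -0.40 through 0.10 to 1.07. All 8 early and all 7 measured mid biopsies lay below the lowest control, and 7 of 8 did in late scar. The fitted difference was -1.18 ± 0.19 (adjusted p = 1.07e-04) in early scar, -1.18 ± 0.20 (adjusted p = 3.20e-04) in mid scar and -0.94 ± 0.19 (adjusted p = 8.40e-04) in late scar. Its red signal was well above background on all 4 control arrays but on only 2 of 8 early, 3 of 8 mid and 2 of 8 late arrays, so these differences rest mostly on scar signals near background.

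PLIN1, the droplet coat protein, had control ratios of 1.26 and 1.57 on the left and right of animal 49 and of 0.70 and 1.63 on the left and right of animal 50. In early scar it ran from -0.01 through 0.21 to 0.42, in mid scar from -0.27 through 0.12 to 1.04 and in late scar from -0.09 through 0.33 to 1.29. All early biopsies, 7 of 8 mid and 6 of 8 late biopsies lay below the lowest control. The fitted differences were -1.06 ± 0.21 (adjusted p = 4.60e-04), -1.12 ± 0.21 (adjusted p = 4.94e-04) and -0.88 ± 0.21 (adjusted p = 0.00219). The red signal of PLIN1 was well above background on 4 of 4 control arrays, on 0 of 8 early, 1 of 8 mid and 3 of 8 late arrays, and the reference signal on none of the 28. The size of the early fitted difference is therefore not a measured one, and only a bound on the mean scar signal can be given. The mean log2 red signal was 7.27 in control skin against a bound of 6.24 in early scar (measured mean 6.23). Between these means the fall was 2.04-fold, a lower limit for dim signal only, with no sampling error included. The 95% interval of the early fitted difference reached -0.63, less than a doubling. The 2.04-fold value compares red signals between arrays and not ratios to the reference, so it is open to differences in brightness between arrays.

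PLIN1 and PNPLA2 were dim, and the size of their differences moved with the handling of background. With the scanner's own processed signals, which have no offset of 50 added, the early differences were -3.40 for PLIN1 and -2.55 for PNPLA2, mid -3.32 and -2.49, and late -2.65 and -2.39. All 6 had adjusted p of 0.00600 or lower. Most of the scar signals behind them were not above background, so neither set gives a measured size. FABP4 and LIPE, which were bright on all 28 arrays, moved little in that setting, to -3.19 and -2.31 in early scar. With each array centred on its median in place of loess, all 12 differences were again called lower, with late scar at -3.27 for FABP4, -2.58 for LIPE and -0.49 for PLIN1. That setting also called more features lower, 3719 in mid and 5666 in late scar, against 2186 and 2515 with loess. The median of all features in late scar was then -0.10, against 0.10 with loess, so the calls in that setting carry less weight.

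**Figure D2:**
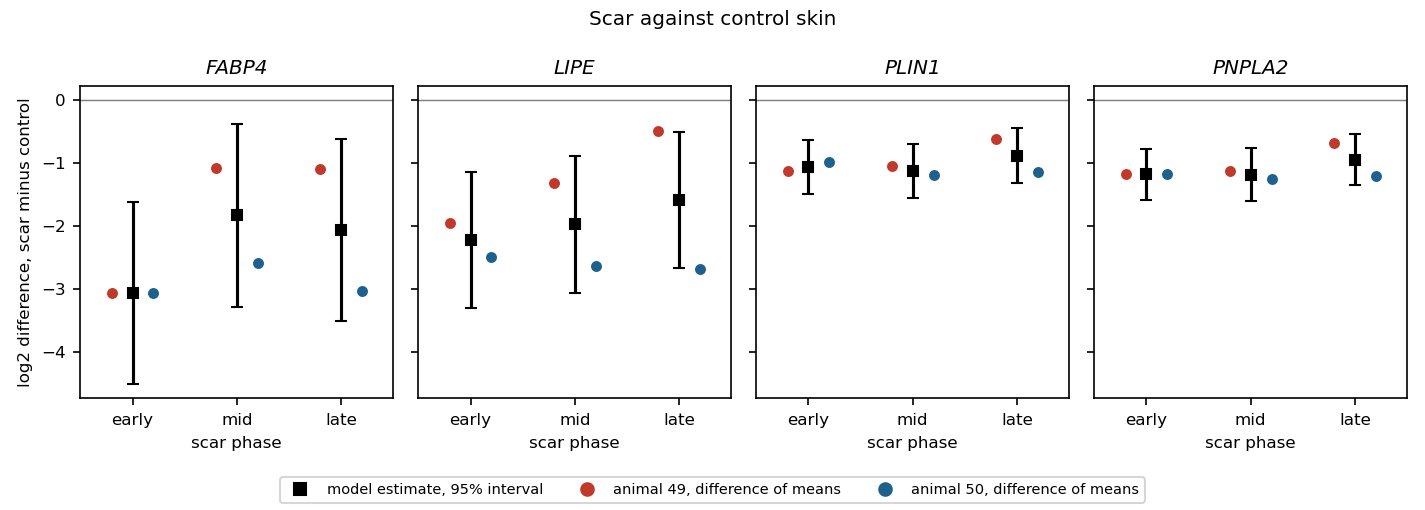
Difference in log2 ratio between scar and control skin (y axis) for each gene at early, mid and late phase (x axis). Black squares are the model estimates with 95% intervals, red and blue points the plain differences of means within animal 49 and animal 50. No interval reaches 0, and in mid and late scar the points of animal 49 lie nearer to 0 than those of animal 50 for each gene.

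The scar biopsies of highest FABP4 came from animal 49. Its 4 highest are given here, of which the late sham hyperpigmented one lay below every control for FABP4, LIPE and PNPLA2. FABP4 was 5.22 in the mid pressure hyperpigmented scar of animal 49, 4.01 in its late sham hypopigmented scar, 3.996 in its late pressure hyperpigmented scar and 3.17 in its late sham hyperpigmented scar. LIPE in the same order was 2.12, 2.12, 2.24 and 0.99. PLIN1 was 1.04, 0.69, 1.29 and 0.79, and PNPLA2 was 0.35, 0.54, 1.07 and 0.24. Next in FABP4 came the mid sham hypopigmented (2.92) and mid pressure hypopigmented (2.83) scars of animal 49. The mid pressure hypopigmented (2.52) and mid pressure hyperpigmented (2.25) scars of animal 50 followed. In that order LIPE was -1.12, 0.81, -0.03 and -1.29, so LIPE did not always follow FABP4. In animal 50 no mid or late scar biopsy exceeded 2.52 for FABP4 or -0.03 for LIPE. As differences of means within an animal, FABP4 in late scar differed from control by -1.10 in animal 49 and by -3.04 in animal 50, and LIPE by -0.50 and -2.68. In early scar the animals gave -3.06 and -3.07 for FABP4. The difference between animals did not pass the test for any of the 4 genes in any phase. Closest to the threshold was LIPE in late scar, whose scar difference in animal 50 minus that in animal 49 was -2.18 ± 0.95 (limma, adjusted p = 0.872). This test was added once the arrays had been seen to differ, and 0%, 0% and 0.00533% of features were called in early, mid and late scar. In mid scar FABP4 differed from control by -1.07 within animal 49 and by -2.60 within animal 50. In both animals the 4 genes had lower means in each scar phase than in control skin. Each mid and late group held 1 biopsy per animal, so a test within 1 animal is not read here.

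The 4 biopsies of animal 49 with the highest FABP4 were high in ADIPOQ, the hormone adiponectin, which is made by fat cells. Its log2 ratio was 3.97, 3.65, 3.56 and 2.67 in their order above, against 1.49 to 3.47 in control skin and at most 1.28 in early scar. In the mid scars next in FABP4, ADIPOQ was -0.50, 2.34, 1.22 and -0.75 in the order given. Some of the 4 biopsies with the highest FABP4 were also high in muscle transcripts. A list of 16 skeletal muscle genes stood 4.28 above its median over arrays in the mid pressure hyperpigmented scar of animal 49 and 5.27 above in its late pressure hyperpigmented scar, against -0.69 to -0.52 in control skin. In the late sham hyperpigmented scar of animal 49 the muscle list stood at 1.94, and in its late sham hypopigmented scar at -0.01. In the early sham hypopigmented scar on the left of animal 50, muscle genes stood at 3.23. The mean of the 4 adipocyte genes there was -0.16 around their medians, but the genes parted. FABP4 was 2.24, the highest of early scar, and LIPE was -1.10, the lowest. Without the 3 arrays of highest muscle signal, FABP4 differed from control by -3.36, -2.06 and -2.29 and LIPE by -2.19, -2.34 and -1.93 in early, mid and late scar. The mid and late arrays left out were themselves high for the 4 genes, at 1.67 and 1.63 above their medians. Leaving them out therefore lowers the mid and late scar values. What muscle tissue contributed was not tested.

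**Figure D3:**
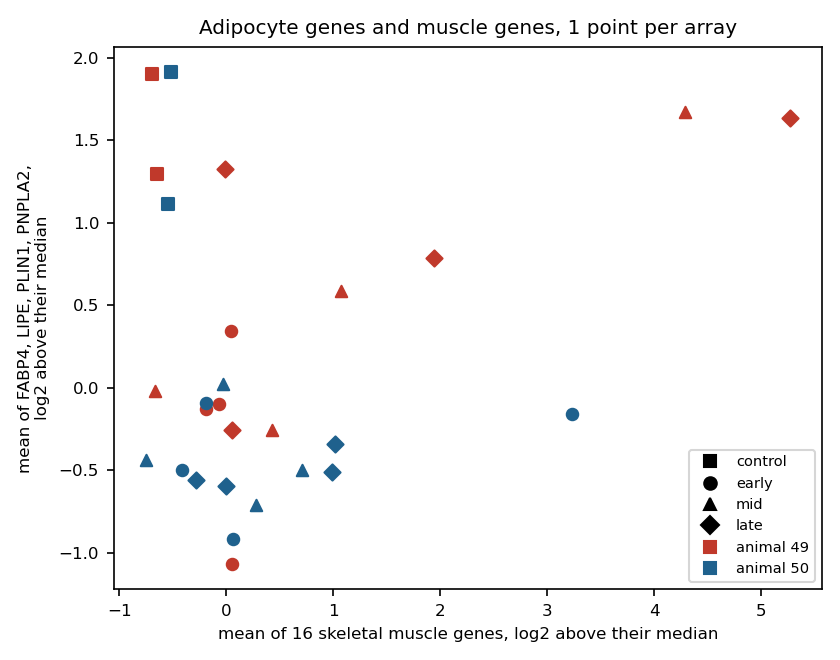
Mean of FABP4, LIPE, PLIN1 and PNPLA2 (y axis) against the mean of 16 skeletal muscle genes (x axis), each as log2 above the gene's median over the 28 arrays, 1 point per array. Control skin (squares) is high for the adipocyte genes at -0.69 to -0.52 for muscle, and the 2 arrays of highest muscle signal, at 4.28 and 5.27, are high for both.

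Ordered by mean over the 11 groups, FABP4 was highest in control skin (4.05), then in mid pressure hyperpigmented (3.74), mid pressure hypopigmented (2.67), late pressure hyperpigmented (2.50), late sham hypopigmented (2.13) and late sham hyperpigmented scar (1.95). Below these lay mid sham hypopigmented (1.37), late pressure hypopigmented (1.36), mid sham hyperpigmented (1.097), early sham hypopigmented (1.09) and early sham hyperpigmented scar (0.88). Control skin ranked highest for each of the 4 genes. The lowest group was mid sham hypopigmented for LIPE (-1.02). For PLIN1 and PNPLA2 the order among scar groups was not read, since most of their scar arrays were not above background. For each gene, all 10 pairs of neighbours in the order had overlapping ranges or, with 1 value, a value inside the other's range.

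The arrays sat on 7 slides of 4, and control arrays on 3 of them. With the slide as a further fixed block, the differences from control stayed negative for all 4 genes in all 3 phases. In early scar FABP4 (-2.90, adjusted p = 0.0178), PLIN1 (-0.88, adjusted p = 0.0272) and PNPLA2 (-1.12, adjusted p = 0.00926) passed, and LIPE did not (-1.61, adjusted p = 0.0709). In mid scar PLIN1 and PNPLA2 passed, and FABP4 (-1.78, adjusted p = 0.150) and LIPE (-1.30, adjusted p = 0.165) did not. In late scar PNPLA2 passed (-0.81, adjusted p = 0.0320), and FABP4 (-1.37, adjusted p = 0.195), LIPE (-0.89, adjusted p = 0.270) and PLIN1 (-0.66, adjusted p = 0.0623) did not. Within slides, the early differences were negative on both slides that held control and early arrays, from -3.85 and -2.26 for FABP4 to -1.36 and -0.52 for PLIN1. Mid differences were negative for FABP4 (-1.03 and -4.76), LIPE and PLIN1 on both slides that held control and mid arrays, and for PNPLA2 on slide 3, its value on the mid array of slide 2 being missing. Late differences turned positive on slide 4 for all 4 genes (FABP4 0.07, LIPE 1.05, PLIN1 0.59, PNPLA2 0.37) and on slide 2 for FABP4 (0.15) and LIPE (0.16). Slide 4 held as its only late array the late pressure hyperpigmented scar of animal 49, and slide 2 the late sham hypopigmented scar of animal 49, which are among the high biopsies described above. Some within-slide differences cross the animals: slide 3 held scars of animal 50 with a control of animal 49, and slide 4 a late scar of animal 49 with a control of animal 50.

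FABP4 was measured by 7 probes, and all 7 were lower than control in every scar phase. In a fit of every kept probe, in which 17.7%, 14.2% and 16.5% of 24508 probes were called lower in early, mid and late scar, 7, 6 and 7 of the FABP4 probes were called lower. Their differences ran from -3.44 to -2.15 in early, -2.42 to -1.69 in mid and -2.57 to -1.76 in late scar. The probe without a mid scar call was the brightest one (adjusted p = 0.0520 in this fit). The dimmest probe, A_72_P496561, was well above background on 14 of 28 arrays and had the smallest differences. The other 6 probes differed on 1 array by a median of 0.47 and at most 1.39 from highest to lowest, and correlated at 0.96 to 0.99 over the 28 arrays, which they share.

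LIPE was measured by 3 probes that did not move alike. The brightest, A_72_P223552, stands for the gene above, and the second, A_72_P440336, correlated with it at 0.94 over 28 arrays. The second probe differed from control by -1.38 ± 0.38 (adjusted p = 0.00707) in early and by -1.24 ± 0.38 (adjusted p = 0.0170) in mid scar. In late scar its difference was -0.78 ± 0.38 (adjusted p = 0.108). The third probe, A_72_P551986, was well above background on all 28 arrays but correlated with the others at -0.08 and 0.06. Its log2 ratio lay between -0.77 and -0.66 in control skin, and its difference was 0.14 (adjusted p = 0.536) in early, 0.40 (adjusted p = 0.0674) in mid and 0.58 ± 0.17 (adjusted p = 0.00944) in late scar, where it was called higher. Averaged over the 3 probes, LIPE differed from control by -1.16 (adjusted p = 0.00543) in early and by -0.94 (adjusted p = 0.0238) in mid scar, and its late difference was -0.60 (adjusted p = 0.130). PLIN1 and PNPLA2 had 1 probe each, so their probe agreement could not be examined.

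**Figure D4:**
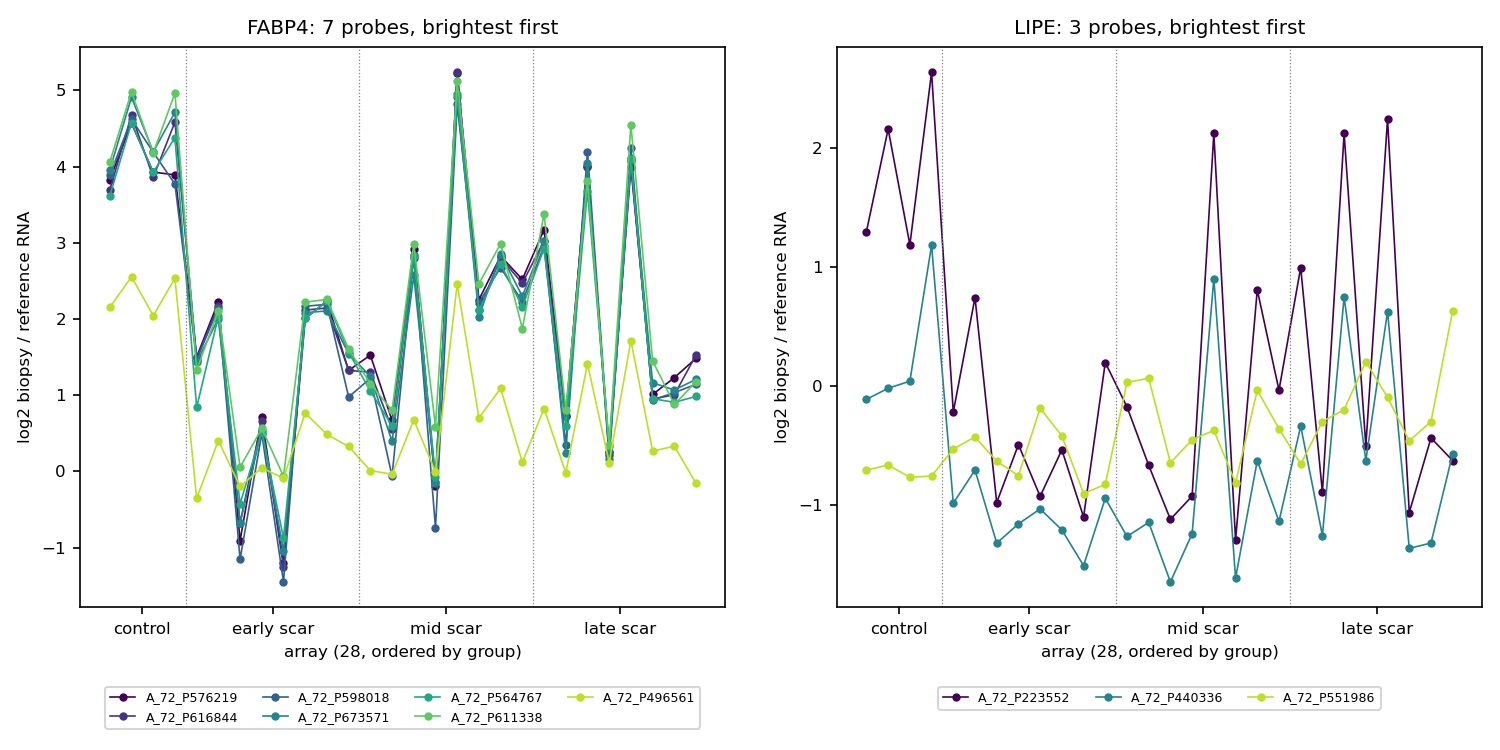
Log2 ratio of biopsy to reference RNA (y axis) of each probe of FABP4 and of LIPE over the 28 arrays ordered by group (x axis), 1 line per probe. The 6 brighter FABP4 probes run within 1.39 of each other on every array, and the dimmest LIPE probe does not follow the other LIPE probes (correlations of -0.08 and 0.06).

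Other genes of lipid droplets and lipolysis were mixed. Of 34 listed, 21 were tested, with 8 lower and 2 higher in early scar, 6 lower and 2 higher in mid scar and 6 lower and 3 higher in late scar. Among all features 24.1%, 22.1% and 26.3% were called higher in the 3 phases. The list medians were -0.14, -0.16 and -0.25, against 0.11, 0.10 and 0.10 over all features. ABHD5, the co-activator that PLIN1 holds and PNPLA2 needs, fell by 2.46 ± 0.29 in early scar (adjusted p = 2.35e-06, limma). PLIN2, the coat protein of small droplets in many cell types, fell by 1.46 ± 0.21 (adjusted p = 1.71e-05), the water and glycerol channel AQP3 fell by 1.57 ± 0.26 (adjusted p = 9.86e-05), and MGLL fell by 0.91 ± 0.16 (adjusted p = 2.10e-04). A keratinocyte list, described below, had a median difference of -2.01 in early scar. Which cell type these falls came from was not tested. In mid and late scar ABHD5 differed by -1.56 and -1.36, and MGLL by -0.57 and -0.56, with all 4 called. The red signal of MGLL was well above background on 15 of 24 scar arrays, so the size of its differences is known less well. Of the 2 genes that rose in early scar, chosen here after their values were seen, LIPA is the acid lipase of lysosomes (1.13, adjusted p = 0.0284) and CAV1 the main protein of caveolae (0.68, adjusted p = 0.0417).

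Adipocyte identity genes showed 8 of 16 tested lower and none higher in early scar, 5 lower in mid scar and 2 lower in late scar, with list medians of -0.68, -0.49 and -0.12. Among all features 14.7%, 11.6% and 13.4% were called lower, so the late count was no larger a share than that of all features. ADIPOQ fell by 2.32 ± 0.60 (adjusted p = 0.00497) in early scar. The adiponectin receptor gene ADIPOR2 fell by 0.93 ± 0.16 (adjusted p = 1.63e-04), the mitochondrial carrier gene UCP3 by 2.16 ± 0.62 (adjusted p = 0.00953) and the transcription factor gene KLF15 by 0.92 ± 0.27 (adjusted p = 0.0111). UCP3 and KLF15 are also transcribed in muscle, whose list is described above. The red signal was well above background on 10 of 24 scar arrays for UCP3 and on 16 for ADIPOQ, so the size of their differences is known less well. ADIPOQ differed by -2.16 (adjusted p = 0.0125) in mid scar and by -1.52 (adjusted p = 0.0515) in late scar, where ADIPOR2 (-0.75, adjusted p = 0.00127) and UCP3 (-1.60, adjusted p = 0.0410) were the 2 genes called.

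Genes of triglyceride and fatty acid synthesis were lower in 6 of 12 in early, 6 in mid and 5 in late scar, with none higher. Among all features 14.7%, 11.6% and 13.4% were called lower and 24.1%, 22.1% and 26.3% higher. The desaturase gene SCD fell by 3.32 ± 0.19 (adjusted p = 3.01e-10) in early scar, DGAT2, which closes triglyceride synthesis, by 2.54 ± 0.37 (adjusted p = 2.57e-05), the fatty acid synthase gene FASN by 1.45 ± 0.22 (adjusted p = 3.96e-05) and the citrate lyase gene ACLY by 0.89 ± 0.16 (adjusted p = 1.95e-04). For FASN 2 of 3 probes had that sign. SCD, FASN, PLIN2 and FADS1, which is also of the synthesis list, stand in the sebaceous gland list as well. There 5 of 6 genes tested were lower in each phase, so the shared genes do not separate fat cells from sebocytes. The range of the sebaceous list was 1.16 to 1.51 above its median in control skin and -0.35 to 0.15 in early scar. Its part in the fall of the shared lipid genes was not tested.

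Fatty acid oxidation genes were lower in 2 of 11 in early scar and higher in none, 4 lower and 1 higher in mid scar, and 3 lower and 2 higher in late scar. The early share lay near the 14.7% of all features called lower. In mid and late scar 11.6% and 13.4% of all features were called lower, and 22.1% and 26.3% higher. PDK4, the kinase that turns off pyruvate dehydrogenase, fell by 2.66 ± 0.59 in early scar (adjusted p = 0.00134), and CPT1A, which lets fatty acids into mitochondria, fell by 0.79 ± 0.21 (adjusted p = 0.00522, 3 of 3 kept probes). The coactivator gene PPARGC1A differed by 0.46 ± 0.19 (adjusted p = 0.0530) and HADH by -0.38 ± 0.15 (adjusted p = 0.0541), neither called.

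**Figure D5:**
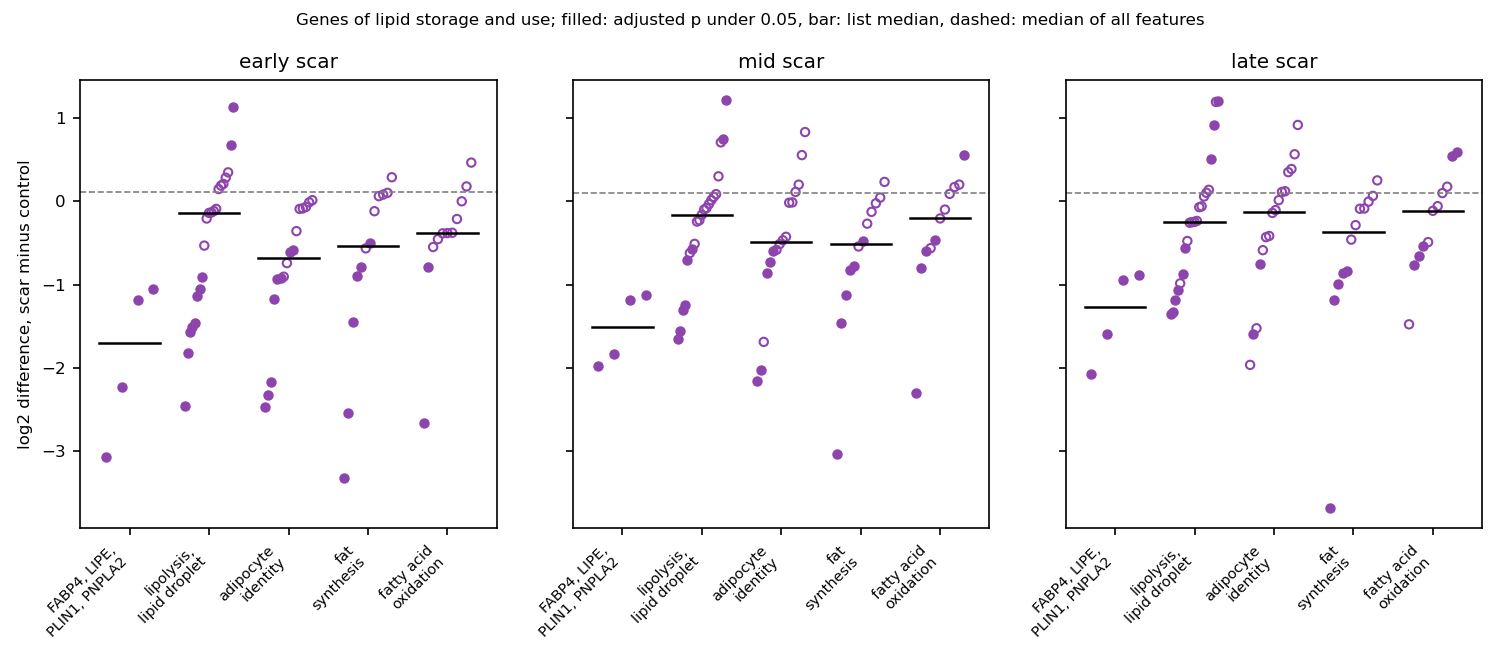
Difference in log2 ratio between scar and control skin (y axis) for the 4 genes and 4 lists of lipid genes (x axis) in early, mid and late scar, 1 point per gene, filled where the adjusted p was under 0.05. Bars are list medians and the dashed line is the median of all features (0.11, 0.10 and 0.10), and the adipocyte identity median moves from -0.68 in early to -0.12 in late scar.

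Lists of other cell types were counted in the same way. In early scar 10 of 10 dermal fibroblast genes, 6 of 7 endothelial and 8 of 12 macrophage and dendritic cell genes were higher, where 24.1% of all features were. Of 16 skeletal muscle genes 2 were higher, a share below that of all features, but the list median was 0.91 against 0.11 over all features. The muscle list stood at -0.69 to -0.52 in control skin and at -0.41 to 3.23 in early scar. Its median difference was 1.11 in mid and 1.63 in late scar, against 0.10 and 0.10 over all features. Of 6 keratinocyte genes 4 were lower in early scar, where 14.7% of all features were. The keratinocyte list stood 1.097 to 1.26 above its median in control skin and at -3.37 to -0.06 in early scar. The lowest early value was that of the sham hypopigmented scar on the left of animal 50, and the next lowest was -0.79. The fibroblast list stood at -2.56 to -1.27 in control skin and at 0.32 to 1.46 in early scar. The part of these shifts in the differences of the 4 adipocyte genes was not tested. Of the 6 keratinocyte genes, 5 were well above background on all 28 arrays and IVL, of the outer epidermal layers, on 26. Epithelial transcripts were thus detected, which does not by itself show the skin origin of the samples.

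No difference between scar phases passed the test for any of the 4 genes. From early to mid sham scar, FABP4 differed by 0.24 (95% interval -1.21 to 1.70) and LIPE by -0.31 (-1.39 to 0.78), where 6.46% of all features were called. From early to late sham scar, FABP4 differed by 1.05 (-0.40 to 2.50), LIPE by 0.84 (-0.24 to 1.93), PLIN1 by 0.12 (-0.31 to 0.55) and PNPLA2 by 0.29 (-0.11 to 0.70), where 19.9% of features were called. Between mid and late scar 0.00533% of features were called, and LIPE differed by 0.39 (-0.50 to 1.27). The interval of FABP4 in mid against early sham scar passes 1 unit in both directions, so a difference of a doubling either way was not detectable with these biopsies.

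Hyperpigmented and hypopigmented scars, the contrast the study was built on, did not differ in these genes past the test. Over all phases the hyperpigmented minus hypopigmented difference was 0.31 (95% interval -0.69 to 1.32) for FABP4, 0.27 (-0.48 to 1.02) for LIPE, 0.13 (-0.17 to 0.43) for PLIN1 and 0.06 (-0.24 to 0.36) for PNPLA2. Limma called 0.0107% of features there, and 585 features had an unadjusted p under 0.05. Within phases, none of the 4 genes was called in early or mid scar, where 0% of features were (870 and 1764 at an unadjusted p under 0.05), or in late scar, where 5.06% were. Paired by animal, side and phase, FABP4 was higher in the hyperpigmented biopsy in 6 of 12 pairs, LIPE in 7 of 12, PLIN1 in 7 of 12 and PNPLA2 in 4 of 11. The number in the scar titles was the same within every early pair but differed within several mid and late pairs, which were thus not matched on it. PLIN1 was higher in 4 of 4 early pairs, by a median of 0.11, at signals not above background.

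Under pressure, FABP4 in mid scar had a higher mean than under sham. The 4 pressure values were 5.22, 2.83, 2.52 and 2.25, and the 4 sham values were 2.92, 1.53, 0.67 and -0.19, so the groups overlapped. The difference was 1.97 ± 0.80 (95% interval 0.30 to 3.65, limma, adjusted p = 0.999), and 0% of features were called in this comparison (851 at an unadjusted p under 0.05). LIPE differed in the same comparison by 1.12 ± 0.60 (interval -0.13 to 2.37), PLIN1 by 0.02 (-0.47 to 0.52) and PNPLA2 by 0.06 (-0.47 to 0.59). In late scar, where 0% of features were called (1060 at an unadjusted p under 0.05), FABP4 differed by -0.11 (-1.78 to 1.57), LIPE by -0.40 (-1.65 to 0.85), PLIN1 by 0.11 (-0.39 to 0.61) and PNPLA2 by -0.12 (-0.59 to 0.35). Paired by animal, phase and pigmentation, FABP4 was higher under pressure in 6 of 8 pairs, LIPE in 4 of 8, PLIN1 in 3 of 8 and PNPLA2 in 3 of 7. Within several of these pairs the number in the scar titles differed, so the pairs were not matched on it. The mid and late pressure differences did not differ past the test (FABP4 late minus mid -2.08 ± 1.14, adjusted p = 0.974). The pressure difference of PNPLA2 was larger in hyperpigmented than in hypopigmented scar by 0.70 ± 0.34 (limma, adjusted p = 0.276, with 0% of features called). Most of these signals were not above background. In mid and late hyperpigmented pairs, pressure minus sham was 0.75 and 0.82 in animal 49 and -0.35 and 0.05 in animal 50. The measured hypopigmented pairs gave -0.19 (mid, animal 50), -0.72 (late, animal 49) and -0.63 (late, animal 50). Both pressure hyperpigmented scars of animal 49 were high in muscle transcripts.

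Across the 24 scar arrays, after subtracting group means, the 4 genes correlated with each other at 0.61 (FABP4 and PNPLA2, 23 arrays) to 0.89 (LIPE and PLIN1). In scar PLIN1 was above background on only 4 arrays and PNPLA2 on 7, so most values behind their correlations and likenesses were not above background. Most groups held 1 biopsy of each animal, so these correlations largely describe how the animals differed within groups. Of 2421 named features, those most like FABP4 were CD36, a fatty acid uptake receptor (0.96), PPARG, the transcription factor of fat cell formation (0.90), and CLSTN3 (0.89). Those most like LIPE were the droplet protein gene CIDEA (0.97), the pyruvate carboxylase gene PC (0.96) and ALDOC (0.95). For PLIN1 they were FAM213B (0.92), MDH1 (0.91) and CAPN3, a muscle protease gene (0.91), and for PNPLA2 the insulin-responsive glucose transporter gene SLC2A4 (0.88), LGALS12 (0.88) and FXR1 (0.86). These values are descriptions over arrays that share their animals and the reference RNA.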

How the data were processed

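The deposited files hold scanner output of 28 arrays, 1 per biopsy, as red (Cy5) and green (Cy3) spot intensity on a linear scale, extracted per the file headers with Agilent Feature Extraction 10.7.1.1. The deposited table of log2 ratios was used as a check. It equals the log2 of red over green processed signals within 0.001 for 99.97 to 99.99% of probes, with column medians of 0.0129 to 0.26. How it was normalized further, and the genome build, are not given in the sources used here. Cy5 held the biopsy and Cy3 the reference per the labels.

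From the median signals, the background was corrected with normexp (offset 50, local backgrounds capped at the 99th percentile of the array), and ratios were normalized by loess within each array, with flagged outlier spots set to missing. A probe was kept when its red signal was well above background on at least 4 arrays, and the brightest probe stood for a gene. Probes were named through their RefSeq identifier: 6924 probes of 3216 genes. Red signals were well above background for 31.4 to 55.7% of probes per array, and arrays allow no counting interval.

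Limma 3.58.1 in R 4.3.3 fitted a mean for each of 11 groups, with the animal as a fixed block, over 28 arrays. Pairing by animal comes from the animal numbers in the titles. P-values were adjusted by Benjamini-Hochberg, with a threshold of 0.05. The code was tested on simulated data. Named genes are FABP4, LIPE, PLIN1 and PNPLA2 with every probe, up to 4 genes per list of lowest p in early scar, and the 3 named features of highest correlation with each gene over the scar arrays. The genes and lists were chosen with earlier results of these data known. Alternatives covered background, normalization, the dim-probe filter, the choice of probe, blocks, each animal alone and arrays left out. No probe or gene sequence was used here.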

Additional observations from a re-analysis of the deposited data

Results flagged for a closer look

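Each of the 4 genes was examined in control skin, in each scar phase and in the early hyperpigmented and hypopigmented groups. Of these 24 sets of 4 to 8 arrays, 2 held an array that stood apart by Dixon's criterion, which chance meets in about 1 in 20 such sets. FABP4 in the right control biopsy of animal 49 had a log2 ratio of 4.57, the next highest control being 3.93. Other FABP4 probes did not set that biopsy apart in the same way: on A_72_P616844 it had 4.68 and the right control of animal 50 had 4.58, and on A_72_P611338 they had 4.98 and 4.96. PLIN1 in the mid pressure hyperpigmented scar of animal 49 had a log2 ratio of 1.04, the next highest mid scar being 0.29, and it was the only mid scar array on which PLIN1 was well above background. The skeletal muscle list stood 4.28 above its median on the same array, and its part in that value was not tested.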

How the results depend on the processing

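The 12 differences of the 4 genes from control skin remained negative under every alternative for background, normalization and block and with no filter on dim probes. The filter of 14 arrays left no value for PLIN1 and PNPLA2. With no filter on dim probes FABP4 in mid scar was -1.83 (adjusted p = 0.0786). The pairing by animal mattered for the same result alone: with no replicate block it was -1.83 (adjusted p = 0.0882), and with animal and side as a replicate block -1.83 (adjusted p = 0.0520). These blocks changed no other call. With the slide as a random block FABP4 in mid scar was -1.81 (adjusted p = 0.05003). With the slide as a fixed block LIPE was -1.61, -1.30 and -0.89 in early, mid and late scar, FABP4 -1.78 in mid and -1.37 in late scar and PLIN1 -0.66 in late scar, none of them called, and 2 of the 4 genes passed in mid and 1 in late scar. Animal 49 alone, with 1 biopsy in each mid and late group, gave -1.07 for FABP4 in mid, -1.10 in late, and -0.50 for LIPE in late scar. The mean over the probes of LIPE gave -0.60 in late scar and its second probe -0.78, neither called, and its dimmest probe 0.14, 0.40 and 0.58 in early, mid and late scar. The cause of these shifts was not tested.

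Within slides, with no test, early scar differed by -1.36 (PLIN1) and -1.73 (PNPLA2) on slide 3 and by -1.35 (LIPE), -0.52 (PLIN1) and -0.70 (PNPLA2) on slide 4. On slide 3, FABP4 differed by -4.76 in mid scar and PNPLA2 by -1.77 in late scar. Late scar turned positive on slide 2 for FABP4 (0.15) and LIPE (0.16), and on slide 4 for FABP4 (0.0684), LIPE (1.05), PLIN1 (0.59) and PNPLA2 (0.37).

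Leaving out 1 array at a time moved FABP4 between -2.14 and -1.59 in mid scar and between -2.40 and -1.74 in late scar, and LIPE in late scar between -1.94 and -1.13. Between 2 and 4 of the 4 genes passed in late scar, with 2 passing without the right control of animal 50. Median centring in place of loess moved the median of all features in late scar from 0.10 to -0.10 and the called features from 2515 lower and 4944 higher to 5666 and 1403. In mid scar it moved them from 2186 and 4153 to 3719 and 1515. Low signal over background limits PLIN1 and PNPLA2.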
